A study of Mus musculus with 6 samples.

Results

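The 9 cardiac transcription factors described here, followed in the mouse atrial muscle cell line HL-1, were Gata4, Gata6, Nkx2-5, Tbx5, Tbx20, Mef2a, Mef2c, Mef2d and Hand2. They were chosen by name, as factors known for heart development, but with earlier results of these data known. All 9 were found among the 32739 genes counted. The series sequenced messenger RNA of cells exposed to hypoxia for 6 h and then reoxygenated for 1 h, with 3 libraries of cells given 5 µM BRL (labelled BRL37344, a β3-adrenergic agonist per the series) and 3 libraries of cells given vehicle. Cells of both groups thus share the hypoxia and reoxygenation, the Claycomb growth medium and the single immortalised line, and normoxic cells were not analysed here. The sources used here do not say when BRL was added. They do not say either that the libraries came from separate cultures, so the p-values rest on a spread between libraries that may be technical.

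Total expected counts, the estimated reads per gene summed over genes, were 6812810 to 8332472 in BRL libraries and 4440168 to 5060049 in vehicle libraries, without overlap. BRL replicate 1 stood apart from the other libraries of its group: the chi-square per degree of freedom over genes was 89.1 and 76.8 against BRL replicates 2 and 3, and 4.20 between those 2. It had 5.03% of its counts in mitochondrially encoded genes, against 19.98% and 21.9% in the other BRL libraries and 16.5% to 20.2% in vehicle libraries. Results are therefore given for all 6 libraries and, where they differ, without BRL replicate 1. All 10 markers listed for cardiomyocytes passed the filter on low counts, and the atrial myosin light chain Myl7 had 3071 to 4207 TPM (RSEM's transcript share, a level corrected for transcript length), against 6.77 to 26.7 TPM for the ventricular light chain Myl2. The fibroblast markers Dcn, Lum, Tcf21 and Thy1, the endothelial marker Emcn and the leukocyte markers Ptprc, Csf1r and Adgre1 had no counts in any library. Other listed markers of these types did: Ddr2 (fibroblast) had 90.9 to 125 TPM, Kdr (endothelium) 0.955 to 13.5 TPM and Cd68 (leukocyte) 3.18 to 6.68 TPM. Of the 6 smooth muscle markers, Acta2 had 1198 to 2422 TPM, Tagln 244 to 540 TPM and Smtn 36.4 to 66.5 TPM. The others were low: Cnn1 had at most 3.69 TPM and Lmod1 at most 2.64 TPM in a library, and Myh11 had 1 to 2 counts.

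GATA4, GATA6, NKX2-5, TBX5, TBX20, the MEF2 proteins and HAND2 bind DNA in the regulatory regions of heart genes, often side by side and in contact with one another, and together drive the contractile and conduction programmes of heart muscle cells. The MEF2 proteins are also end points of calcium signalling, since class IIa histone deacetylases hold them inactive until kinases move those enzymes out of the nucleus. In the adult heart the same factors take part in the transcriptional response to adrenergic stimulation and stress.

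Promoter sequences in RefSeq (build GRCm38.p6) were matched for 6 of the 9 factors, and 4 are shown: those of Tbx20 and Mef2a, the factors with the smallest p-values in the comparison of BRL with vehicle, and those of Nkx2-5 and Hand2, which share a motif with Tbx20. Each is the 250 bases before the annotated start, written 5′ to 3′ on the gene's strand. They lie at chr9:24774304-24774553 (minus strand) for Tbx20, chr17:26841566-26841815 (minus strand) for Nkx2-5, chr8:57320733-57320982 (plus strand) for Hand2 and chr7:67372859-67373108 (minus strand) for Mef2a. Capitals mark matches on either strand to the core of the cyclic AMP response element (TGACG), to GATA sites (AGATAA or TGATAA), to the NKX2-5 site (TNAAGTG), to the T-box core (AGGTGT), or to the MEF2 and CArG motifs.
Tbx20: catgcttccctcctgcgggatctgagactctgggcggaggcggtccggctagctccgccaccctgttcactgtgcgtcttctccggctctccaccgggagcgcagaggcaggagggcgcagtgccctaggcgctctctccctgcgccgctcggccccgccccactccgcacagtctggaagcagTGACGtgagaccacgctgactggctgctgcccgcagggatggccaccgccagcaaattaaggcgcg
Nkx2-5: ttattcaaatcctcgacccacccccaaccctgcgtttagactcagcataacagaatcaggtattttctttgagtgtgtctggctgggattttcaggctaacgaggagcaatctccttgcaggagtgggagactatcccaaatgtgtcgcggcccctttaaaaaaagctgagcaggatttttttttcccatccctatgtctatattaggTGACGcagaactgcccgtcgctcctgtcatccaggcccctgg
Hand2: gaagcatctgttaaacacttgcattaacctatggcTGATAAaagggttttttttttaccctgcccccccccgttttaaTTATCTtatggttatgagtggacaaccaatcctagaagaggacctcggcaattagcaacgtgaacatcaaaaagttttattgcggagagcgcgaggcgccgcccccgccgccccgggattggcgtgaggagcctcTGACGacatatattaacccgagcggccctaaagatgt
Mef2a: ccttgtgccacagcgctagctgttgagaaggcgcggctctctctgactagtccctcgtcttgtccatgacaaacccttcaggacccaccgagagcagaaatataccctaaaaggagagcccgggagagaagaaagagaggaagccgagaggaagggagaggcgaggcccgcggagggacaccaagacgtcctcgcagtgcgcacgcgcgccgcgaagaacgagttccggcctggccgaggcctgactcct
The core TGACG began 66 bases before the start in Tbx20, 42 in Nkx2-5 and 37 in Hand2, each time on the gene's strand. It was present in 17.8% of 32851 promoter windows of the same length, and the full palindrome TGACGTCA, which contains it, in 1.55% of them and in none of the 4 shown. Hand2 also held GATA sites 215 and 172 bases before the start, a motif found in 16.6% of windows. The Mef2a window held no match to these motifs. The NKX2-5, T-box, MEF2 and CArG motifs were in 10.1%, 11.8%, 2.92% and 1.47% of windows. Of the promoters not shown, that of Mef2d held no match, and 1 of 3 annotated Mef2c starts had the T-box core, 216 bases before it. E-boxes (CANNTG), present in 66.2% of windows, were searched too and are not capitalised. A match describes the letters and is not a binding site, and the counts come from another build, NCBIM37.

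All 9 factors were expressed in every library, here meaning at least 1 TPM. Gata4 had the highest mean over the 6 libraries, 108.7 TPM, with 119.8, 109 and 125 TPM in BRL replicates 1, 2 and 3 and 92.2, 105 and 101 TPM in vehicle replicates 1, 2 and 3. Mef2a followed with a mean of 80.8 TPM and a range of 46.5 to 115 TPM. Nkx2-5 came next with 59.7 TPM (44.2 to 70.9), Mef2d with 44.8 (36.8 to 60.4), Tbx20 with 36.2 (27.2 to 56.7) and Tbx5 with 35.5 TPM (21.1 to 42.9). Hand2, Mef2c and Gata6 were lowest, at means of 12.6, 9.26 and 6.83 TPM. Ranges of neighbours in this order overlapped except between Tbx5 and Hand2, where the lowest Tbx5 value, 21.1 TPM, lay above the highest Hand2 value, 13.96 TPM. By CPM per kb of the longest annotated transcript Mef2a ranked 1, Gata4 2, Tbx5 4, Mef2d 5 and Tbx20 6, so the places of these factors depend on the length used. By TPM, Tbx20 was above Tbx5 in BRL replicate 1 only. Among all counted genes, 3.41% had a mean TPM at or above that of Gata4, and 29.3% one at or above that of Gata6. TPM values are shares of all transcripts in a library.

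**Figure D1:**
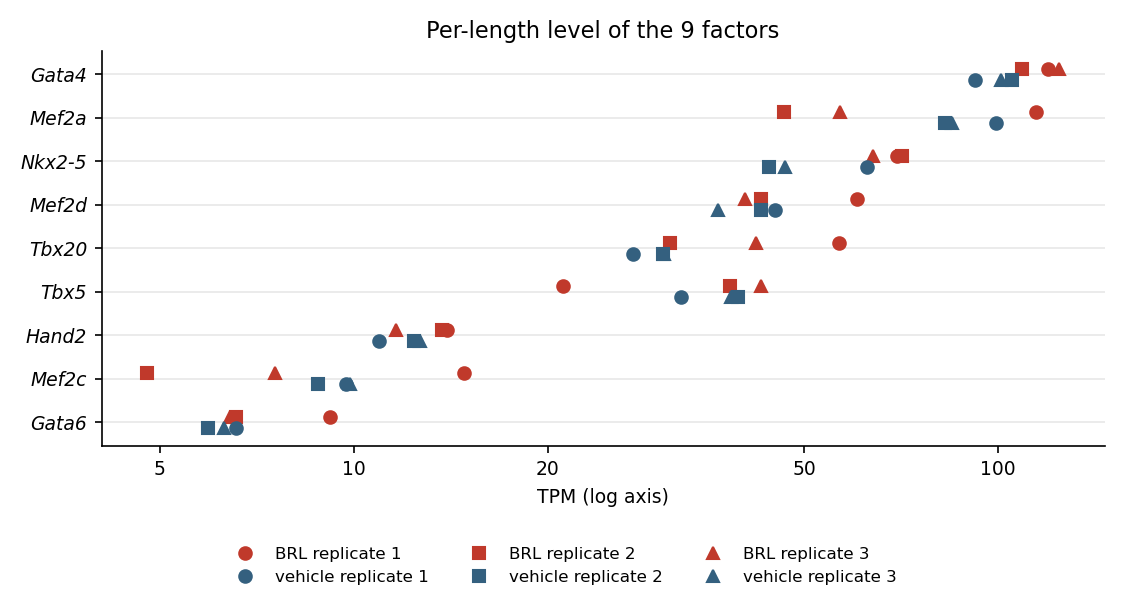
TPM (log axis) of the 9 factors in the 3 BRL libraries (red, upper points) and the 3 vehicle libraries (blue, lower points), with a symbol for each replicate. The 6 upper factors lie between 21.1 and 125 TPM and the lower 3 between 4.78 and 14.8 TPM.

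The comparison of BRL with vehicle asked whether the agonist changed these factors after hypoxia and reoxygenation. None of the 9 passed edgeR's quasi-likelihood test at a Benjamini-Hochberg adjusted p of 0.05, a threshold that 2.81% of the 12047 genes tested passed (1.01% higher, 1.79% lower in BRL). Tbx20 and Mef2a, 2 of the 9, had an unadjusted p under 0.05, against 22.4% of all genes. DESeq2 and limma-voom called none of the 9 either, and edgeR's exact test called Tbx20. Every BRL library lay above every vehicle library for Tbx20 and Gata6, against 16.0% of all genes, and below for Mef2a, against 15.5%. With 31.5% of all genes without overlap in either direction, 3 of 9 is near the background. The median log2 fold change (BRL over vehicle) was 0.07 over the 9 factors and 0.0051 over all genes tested. In simulated counts the test recovered 10 of 50 genes changed 1.5-fold and 40 of 50 changed 2-fold, so a difference near 1.5-fold would often be missed. Without BRL replicate 1, Gata4, Nkx2-5 and Tbx20 rose and Mef2a and Mef2c fell, where 21.2% of 12064 genes passed, 10.3% higher and 10.9% lower.

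**Figure D2:**
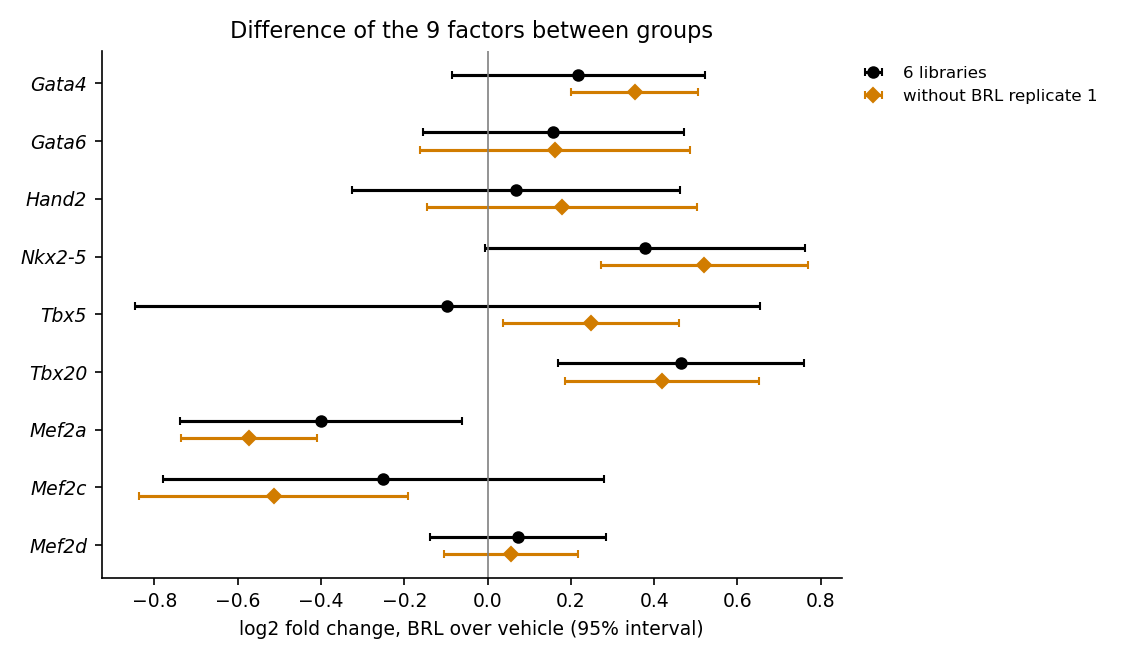
Log2 fold change of each factor, BRL over vehicle, with its 95% interval, from all 6 libraries (black circles) and without BRL replicate 1 (orange diamonds). With 6 libraries the intervals of Tbx20 (0.17 to 0.76) and Mef2a (−0.74 to −0.06) leave out 0; without BRL replicate 1 those of Gata4, Nkx2-5, Tbx5, Tbx20, Mef2a and Mef2c do.

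Values in the comparison are CPM, the share of a library's counts, scaled by library factors (trimmed mean of M values, TMM). Overlap of the groups was read by CPM too and depends on the unit. By TPM, Gata6 and Mef2a overlapped, while Gata4, Nkx2-5 and Tbx20 were higher in every BRL library than in every vehicle library. No share of all genes was taken by TPM. Gata4 (ENSMUSG00000021944, chromosome 14), a zinc finger protein needed for heart tube formation and for hypertrophic growth, had 111, 149 and 153 CPM in BRL replicates 1, 2 and 3 and 111, 120.2 and 123 CPM in vehicle replicates 1, 2 and 3. BRL replicates 2 and 3 were above all vehicle libraries and BRL replicate 1 was level with vehicle replicate 1. The log2 fold change was 0.22 ± 0.13 (SE, edgeR adjusted p = 0.374), and 0.35 ± 0.07 without BRL replicate 1 (adjusted p = 0.00380, in a range of 0.00380 to 0.612 over 17 other settings). Gata6 (ENSMUSG00000005836, chromosome 18), its relative in outflow tract and endoderm development, had 14.4, 15.1 and 13.8 CPM in BRL libraries and 13.0, 12.6 and 13.2 CPM in vehicle libraries. The groups did not overlap, yet the difference was small, with a 95% interval of −0.16 to 0.47 on the log2 scale (adjusted p = 0.537).

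Hand2 (ENSMUSG00000038193, chromosome 8), a basic helix-loop-helix factor of the right ventricle and outflow tract in mouse embryos, had 15.2, 21.8 and 17.3 CPM with BRL and 15.0, 18.3 and 18.4 CPM with vehicle. The groups overlapped, and the interval of the log2 fold change ran from −0.33 to 0.46 (edgeR adjusted p = 0.852). Its exons overlap those of the antisense transcript Hand2os1, and no source used here says whether reads were counted by strand. Exons of Gata6 and Mef2d likewise overlap annotated transcripts of the opposite strand.

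Nkx2-5 (ENSMUSG00000015579, chromosome 17), the homeodomain factor that marks cardiac progenitors and binds with GATA4 at the atrial natriuretic peptide gene, had 51.1, 75.9 and 64.3 CPM in BRL libraries and 57.8, 43.6 and 45.6 CPM in vehicle libraries. BRL replicates 2 and 3 lay above all vehicle libraries, while BRL replicate 1 lay under vehicle replicate 1. The log2 fold change was 0.38 ± 0.17 (SE, edgeR adjusted p = 0.229), and 0.52 ± 0.12 without BRL replicate 1 (adjusted p = 0.00679, in a range of 0.00679 to 0.533 over 17 other settings).

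Tbx5 (ENSMUSG00000018263, chromosome 5), a T-box activator of atrial and conduction genes, had 41.0, 109 and 114 CPM in BRL libraries and 79.2, 103 and 99.9 CPM in vehicle libraries. BRL replicate 1 had the lowest value of the 6 libraries and the other 2 BRL libraries the highest. The log2 fold change was −0.10, with a 95% interval of −0.85 to 0.65 (edgeR adjusted p = 0.895), and its direction turned to 0.25 without BRL replicate 1 (adjusted p = 0.0884, in a range of 0.0884 to 0.986 over 17 other settings). Tbx20 (ENSMUSG00000031965, chromosome 9), a T-box factor required in adult cardiomyocytes that represses Tbx2 in the developing chambers, had 113, 88.8 and 115 CPM with BRL and 68.4, 81.2 and 79.7 CPM with vehicle. Every BRL library was above every vehicle library, BRL replicate 1 included. Its log2 fold change of 0.47 ± 0.13 had the smallest p of the 9 (unadjusted p = 0.00632, edgeR adjusted p = 0.0921). It passed without BRL replicate 1 (0.42 ± 0.11, adjusted p = 0.0152) and in edgeR's exact test (adjusted p = 0.0380), in a range of adjusted p from 0.0152 to 0.295 over 17 other settings. The exact test called 7.84% of all genes, 3.47% higher and 4.37% lower.

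Mef2a (ENSMUSG00000030557, chromosome 7), the MADS-box factor that is the main MEF2 protein of the adult mouse heart, had 252, 166 and 194 CPM in BRL libraries and 277, 269 and 261 CPM in vehicle libraries. By CPM each BRL library was under each vehicle library, with BRL replicate 1 closest to vehicle. By TPM, BRL replicate 1 had the highest value of the 6 libraries, 115 TPM, against 82.7 to 99.3 TPM in vehicle libraries. The log2 fold change was −0.40 ± 0.15 (SE, edgeR adjusted p = 0.170), and −0.57 ± 0.08 without BRL replicate 1 (adjusted p = 0.000205, in a range of 0.000205 to 0.396 over 17 other settings). Part of its exons overlaps Lysmd4 on the opposite strand. Mef2c (ENSMUSG00000005583, chromosome 13), the MEF2 gene first expressed in the mouse heart tube, had 40.2, 19.3 and 29.8 CPM with BRL and 33.4, 35.5 and 37.5 CPM with vehicle. BRL replicate 1 was the highest and BRL replicates 2 and 3 the lowest of the 6 libraries. The log2 fold change was −0.25 ± 0.23 (adjusted p = 0.565), and −0.51 ± 0.15 without BRL replicate 1 (adjusted p = 0.0272, in a range of 0.0272 to 0.955 over 17 other settings). Mef2d (ENSMUSG00000001419, chromosome 3), a stress-responsive MEF2 protein, had 128, 123 and 122 CPM with BRL and 127, 117 and 112 CPM with vehicle. These groups overlapped, with an interval of −0.14 to 0.28 (adjusted p = 0.689), and its expected counts were not whole numbers, so part of its reads was shared with other loci.

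**Figure D3:**
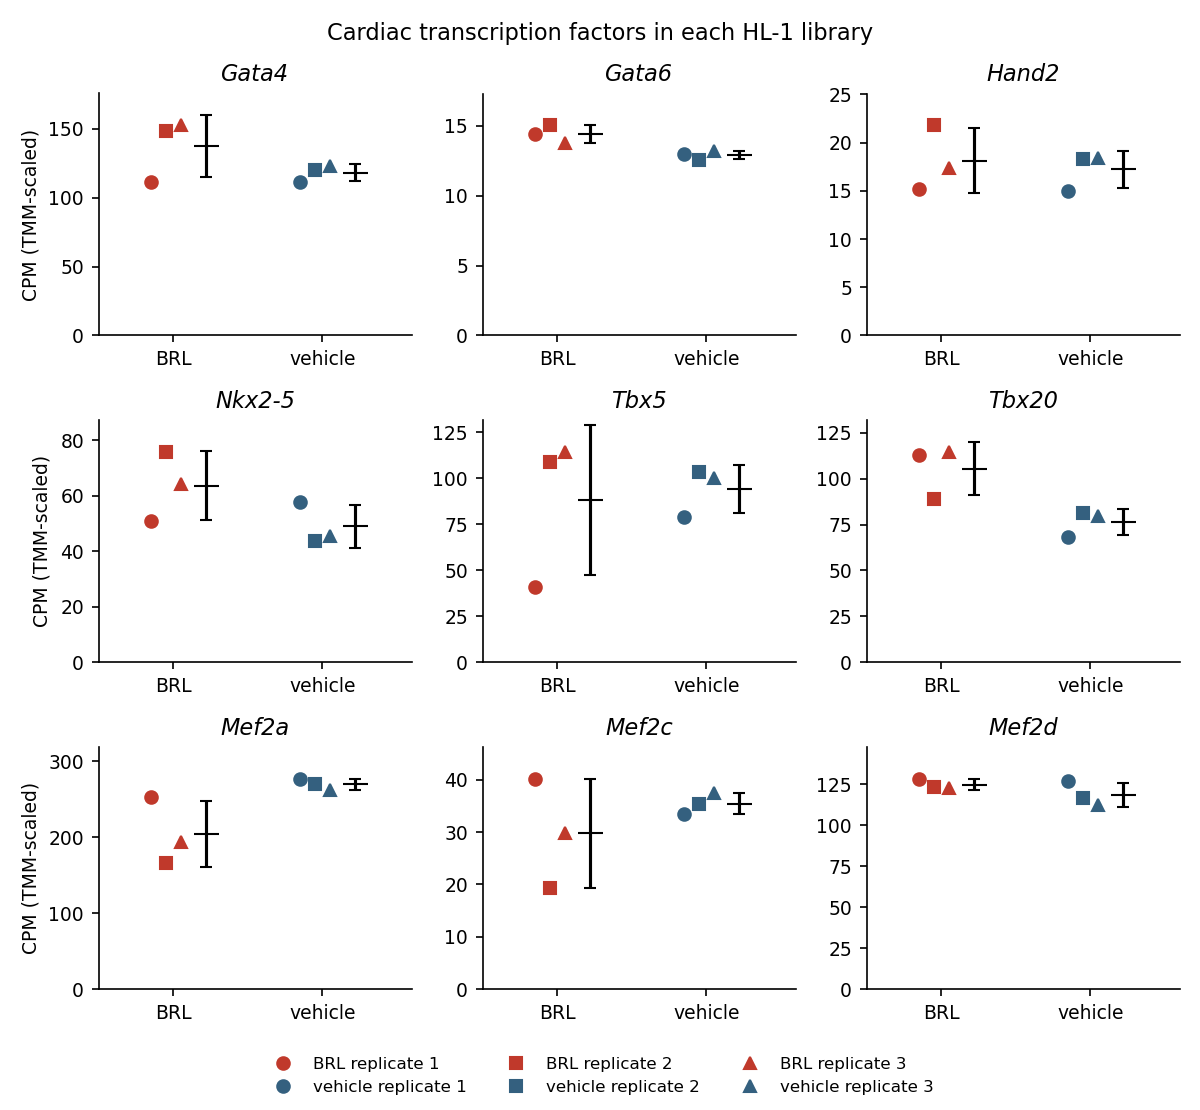
TMM-scaled CPM of the 9 factors in each library, with BRL (red) left of vehicle (blue), a symbol for each replicate and black bars for the mean ± SD of 3 libraries. Tbx20 and Gata6 have all BRL points above, and Mef2a all BRL points below, the vehicle points; BRL replicate 1 is the lowest Tbx5 point at 41.0 CPM and the highest Mef2c point at 40.2 CPM.

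Within the MEF2 family, Mef2a made up 60.4%, 49.4% and 54.2% of the summed TPM of Mef2a, Mef2c and Mef2d in BRL libraries and 64.4%, 61.5% and 64.5% in vehicle libraries. The groups did not overlap, and the means, 54.6% ± 5.51 with BRL and 63.5% ± 1.71 with vehicle (SD, n = 3 each), differed by −8.86 percentage points (two-sided exact permutation p = 0.1, the smallest that 3 against 3 libraries can give). Mef2d took 31.8%, 45.6% and 38.6% of the MEF2 total in BRL libraries and 29.2%, 31.9% and 28.0% in vehicle libraries, which overlapped (exact permutation p = 0.2). By CPM the Mef2d share did not overlap, at 30.5%, 39.9% and 35.3% in BRL libraries and 29.0%, 27.7% and 27.3% in vehicle libraries (exact permutation p = 0.1, again the smallest possible). Mef2c held 5.07% to 7.82% with BRL and 6.31% to 7.49% with vehicle. The scaling of a library cancels in such shares.

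Gata4 was the bulk of the GATA pair in all libraries, with 94.1% ± 1.13 of the summed TPM of Gata4 and Gata6 in BRL libraries and 94.1% ± 0.65 in vehicle libraries (SD, n = 3 each). Tbx5 made up 27.1%, 55.3% and 50.5% of the sum of Tbx5 and Tbx20 with BRL and 54.3%, 56.7% and 55.98% with vehicle. The low value belongs to BRL replicate 1, and the difference of −11.3 percentage points (exact permutation p = 0.2) shrank to −2.71 without that library.

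**Figure D4:**
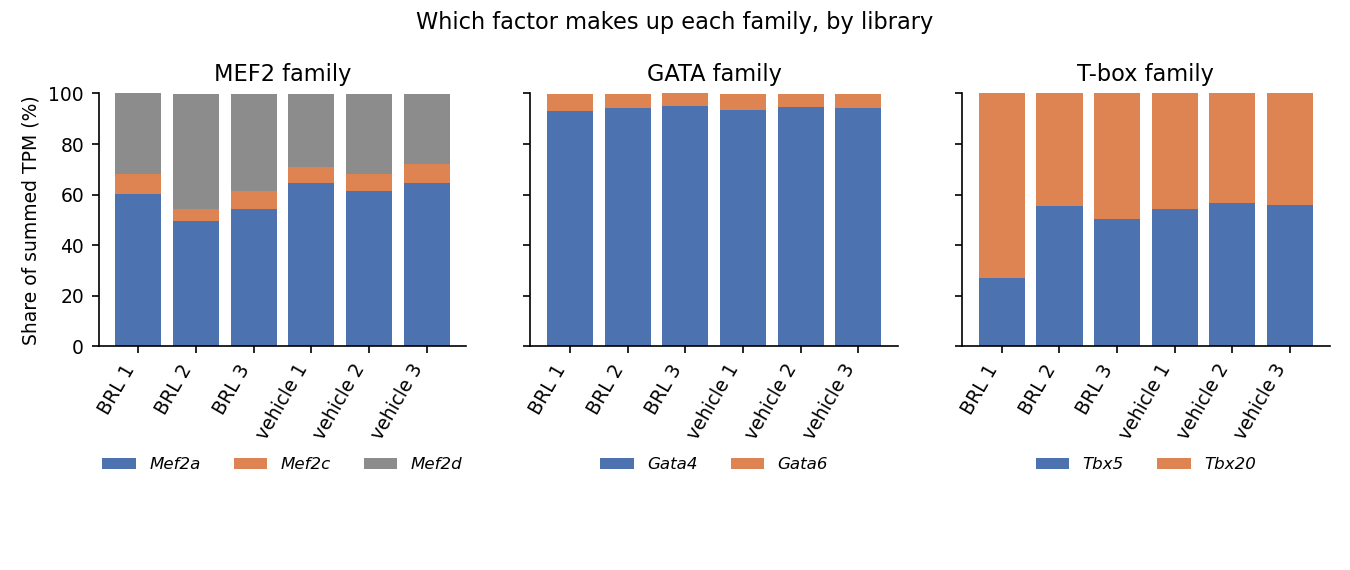
Share of the summed TPM (%) that each factor holds within the MEF2, GATA and T-box groups, a bar for each library with BRL left of vehicle. The Mef2a share is 49.4% to 60.4% with BRL and 61.5% to 64.5% with vehicle, and BRL replicate 1 has the lowest Tbx5 share, 27.1%.

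To see which chamber factors HL-1 cells express, 33 further genes were read, listed as atrial, ventricular or nodal factors or as relatives of the 9. Of these, 14 had more than 3 counts in every library, 13 reached 1 TPM in every library, and 8 had no counts at all, which allows up to 3 counts, or 0.360 to 0.676 CPM, in a library. All 4 atrial factors reported here were expressed. Meis2, a homeodomain partner of cardiac factors, had 27.2 to 45.9 TPM, and Nr2f2, the orphan nuclear receptor that maintains atrial identity in mice, had 14.1 to 21.0 TPM. Hey1, a Notch-responsive repressor of atrial myocardium, had 6.95 to 21.6 TPM, and Nr2f1 had 3.79 to 7.97 TPM. Counts of Nr2f1 and Nr2f2 were not all whole, and their exons overlap annotated transcripts of the opposite strand.

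Of 5 ventricular genes, Irx4, Hand1 and the growth regulator Mycn had no counts. The ventricular repressor Hey2 was low, with 1.14 to 2.80 TPM, and Irx5, which shapes repolarisation across the ventricular wall, had 2.79 to 5.64 TPM. Among nodal and conduction genes, Shox2, a homeodomain factor of the sinoatrial node, had 13.4 to 32.6 TPM and Tbx18, a factor of the sinus horns, 12.1 to 13.3 TPM. Irx3, a factor of the conduction system whose exons overlap the antisense transcript Irx3os, had 3.85 to 6.15 TPM. Tbx2 had 0.51 to 2.44 TPM and Tbx3 0.26 to 3.59 TPM, below 1 TPM in at least a library each. Isl1 had no counts, and the pacemaker channel Hcn4 had 0 to 7 counts. Among relatives of the 9, Gata5, Gata2, Tbx1 and Eomes were expressed, with 4.02 to 5.23, 1.78 to 3.26, 5.97 to 8.16 and 5.20 to 8.04 TPM, while Mef2b had 0 to 7 counts and Nkx2-3, Nkx2-6, Tbx19 and Tbx22 none. Counts of Gata5 were not all whole. Exons of Gata5, Eomes, Tbx3 and Tbx18 overlap annotated transcripts of the opposite strand.

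**Figure D5:**
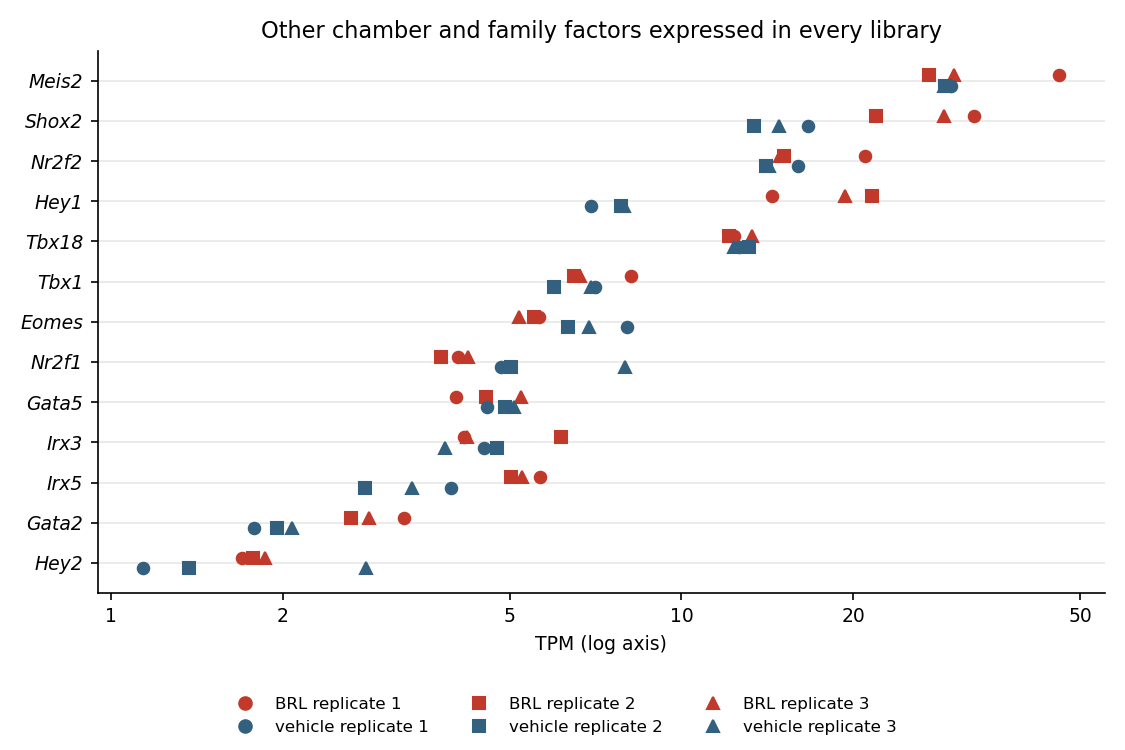
TPM (log axis) of the 13 further chamber and family factors with at least 1 TPM in every library, in BRL (red, upper points) and vehicle (blue, lower points). Shox2, Hey1, Irx5 and Gata2 have all BRL points above, and Eomes and Nr2f1 all BRL points below, the vehicle points, with Shox2 at 21.9 to 32.6 TPM with BRL and 13.4 to 16.7 TPM with vehicle. By TMM-scaled CPM, Nr2f1 overlapped and Nr2f2 lay above, where 31.5% of all genes tested did not overlap in either direction. No such share was taken by TPM.

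Shox2 was the single chamber or family factor past the threshold. It had 34.7, 37.3 and 45.7 CPM in BRL libraries and 21.1, 18.9 and 25.1 CPM in vehicle libraries, and rose by 0.85 ± 0.15 on the log2 scale (SE, edgeR adjusted p = 0.0298). Its counts were not whole and its exons overlap Rsrc1 on the opposite strand. The call was lost without BRL replicate 2 (adjusted p = 0.0660), BRL replicate 3 (0.0688) or vehicle replicates 1, 2 and 3 (0.137, 0.165 and 0.0895), and held without BRL replicate 1 (0.000274), in a range of 0.000139 to 0.165 over 17 other settings. Hey1 had 15.5, 33.9 and 28.5 CPM with BRL and 9.42, 11.3 and 11.3 CPM with vehicle, also without overlap. Its log2 fold change of 1.27 ± 0.28 missed the threshold with 6 libraries (adjusted p = 0.0537), and without BRL replicate 1 it was 1.54 (adjusted p = 1.10e-05, in a range of 1.10e-05 to 0.234 over 17 other settings). Hey1 also passed when scaled by library totals, with no filter, in DESeq2 and in edgeR's exact test (adjusted p from 0.00102 to 0.0375). By list, 0 of 4 atrial, 0 of 2 ventricular, 1 of 5 nodal and 0 of 7 family genes tested passed, against 2.81% of all genes. In the same order, 1, 1, 2 and 1 had an unadjusted edgeR p under 0.05, against 22.4% of all genes. The medians were 0.10, 0.28, 0.64 and 0.05 on the log2 scale, against 0.0051 for all genes. Tbx2, Tbx3 and Tbx18 stand in both of the last 2 lists. The genes of smallest p in the ventricular and family lists, Irx5 and Tbx3, had log2 fold changes of 0.61 ± 0.23 and 1.02 ± 0.45 (edgeR adjusted p = 0.169 and 0.221). Irx5, like Hey1, passed without BRL replicate 1 (edgeR adjusted p = 0.0330), where 21.2% of all genes passed, 10.3% higher.

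Of 24 partners and coregulators of the 9 factors, 22 were tested, none rose and Smyd1 fell, where 1.01% of all genes rose and 1.79% fell. Smyd1, a muscle histone methyltransferase that in mice acts upstream of Hand2, had 56.8, 41.7 and 44.5 CPM in BRL libraries and 92.6, 97.97 and 105 CPM in vehicle libraries. All BRL libraries were under all vehicle libraries, and the log2 fold change was −1.05 ± 0.13 (SE, edgeR adjusted p = 0.00662). The call was lost without vehicle replicate 2 (adjusted p = 0.0599) or vehicle replicate 3 (0.0694), in a range of 5.21e-09 to 0.0694 over 17 other settings. The median of the 22 was −0.03. Without BRL replicate 1, none of the 22 rose and 5 fell, against 10.3% and 10.9% of all genes.

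Of 20 MEF2 regulators, 19 were tested and 3 fell, where 1.79% of all genes fell, with a median log2 fold change of −0.16. Hdac5, a class IIa deacetylase that represses MEF2, had 49.4, 48.0 and 48.4 CPM with BRL and 62.6, 68.6 and 66.3 CPM with vehicle (−0.44 ± 0.09, edgeR adjusted p = 0.0478). Hdac7, of the same class, had 22.4, 30.5 and 24.8 CPM with BRL and 41.5, 42.4 and 42.8 CPM with vehicle (−0.71 ± 0.13, adjusted p = 0.0340). Camk2d, the main cardiac calmodulin kinase and one that phosphorylates class IIa deacetylases, had 108.8, 85.2 and 89.4 CPM with BRL and 134, 138 and 149 CPM with vehicle (−0.57 ± 0.12, adjusted p = 0.0439). Of the 19 tested, 3 had every BRL library above every vehicle library and 8 had every one below, against 16.0% and 15.5% of all genes. Hdac5, Hdac7 and Camk2d are among the 8. All 3 calls were lost when any of vehicle replicates 1, 2 and 3 or BRL replicate 3 was left out, with adjusted p from 0.0827 to 0.237, and those of Hdac5 and Camk2d also without BRL replicate 2 (0.120 and 0.121). Scaled by library totals alone, Hdac5 and Camk2d missed the threshold (adjusted p = 0.137 and 0.141), and Hdac5 missed it narrowly under RLE size factors, with mitochondrial genes removed, with no filter, with a filter of 1 CPM and in limma-voom (0.0501 to 0.0725). Over 17 other settings the adjusted p ran from 0.00258 to 0.237 for Hdac5, from 0.000512 to 0.190 for Hdac7 and from 5.23e-05 to 0.237 for Camk2d. Without BRL replicate 1, Hdac4 rose and 8 of the 19 fell, the 3 named among them, where 10.3% of all genes rose and 10.9% fell.

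Among 29 heart genes listed as bound by these factors, 26 were tested and 4 fell, where 1.79% of all genes fell. Their median log2 fold change was −0.44, against 0.0051 for all genes. No binding data were used here, and this list, like the others, was drawn up with earlier results of these data known. Its counts and median are therefore descriptions. Gja1, which encodes connexin 43, fell to 344, 405 and 365 CPM with BRL, against 664, 556 and 623 CPM with vehicle (−0.73 ± 0.11, edgeR adjusted p = 0.0160). Slc8a1, the sodium-calcium exchanger, fell by 0.65 ± 0.14 (adjusted p = 0.0478), and the α-myosin heavy chain Myh6 (−1.33 ± 0.19, adjusted p = 0.0117) and the calcium pump inhibitor Pln (−1.52 ± 0.13, adjusted p = 0.00183) fell too. Nppa, the atrial natriuretic peptide gene bound by GATA4, NKX2-5 and TBX5, had 504, 504 and 408 CPM with BRL and 523, 496 and 456 CPM with vehicle, which overlapped (−0.06 ± 0.12, adjusted p = 0.803). The Pln call held without each library in turn. The calls of Gja1, Slc8a1 and Myh6 were lost when any of the 3 vehicle libraries was left out (adjusted p from 0.0541 to 0.237), and those of Gja1 and Slc8a1 also without BRL replicate 3 (0.0610 and 0.0969) and that of Slc8a1 without BRL replicate 2 (0.102). Slc8a1 missed the threshold too when scaled by library totals (0.139) and, at 0.0503 to 0.0516, under RLE size factors, with mitochondrial genes removed, with a filter of 1 CPM and in limma-voom. Counts of Myh6 and Nppa were not all whole. Exons of Pln overlap those of Cep85l on the opposite strand. Exons of Myh6, Slc8a1 and Nppa likewise overlap annotated transcripts of the opposite strand. Without BRL replicate 1, 2 of the 26 rose and 12 fell, with a median of −0.28, where 10.3% of all genes rose and 10.9% fell.

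All 10 markers listed for cardiomyocytes are also among the 29 heart genes above, so their calls stand in the counts of both lists. The summed level of the 10 cardiomyocyte markers was 4393 to 5831 CPM in BRL libraries and 7667 to 8502 CPM in vehicle libraries. Myh6 made up most of this difference, with means of 1329 CPM with BRL and 3336 CPM with vehicle. In the test 2 of the 10, Myh6 and Pln, fell, where 1.79% of all genes fell. Actc1, Ttn and Myl4 had log2 fold changes of −0.89, −0.71 and −0.44, with each BRL library under each vehicle library, without passing the test. Tnnt2, Nppa, Ryr2 and Myl7 had log2 fold changes of −0.05, −0.06, −0.15 and −0.16 in overlapping groups. Tnni3 was higher in each BRL library (236 to 254 CPM) than in each vehicle library (213 to 221 CPM), without passing the test. In all, 5 of the 10 lay below and 1 above, against 15.5% and 16.0% of all genes. Without BRL replicate 1, 6 of the 10 fell and Tnni3 rose, where 10.9% of all genes fell and 10.3% rose. In bulk libraries fewer cells of a type and less RNA per cell cannot be told apart. The 6 smooth muscle markers, mainly Acta2 and Tagln, summed to 1271 to 2648 CPM with BRL and 3065 to 3462 CPM with vehicle. None of the 5 tested passed, where 2.81% of all genes did. Without BRL replicate 1, 3 of the 5, Acta2, Tagln and Smtn, fell (edgeR adjusted p = 0.00549, 0.0278 and 0.0332), where 10.9% of all genes fell. The 8 fibroblast markers summed to 417 to 517 CPM with BRL and 595 to 670 CPM with vehicle, nearly all of it Ddr2. Dcn, Lum, Tcf21 and Thy1 had no counts, and Col1a1 had 16 to 28 counts a library. Ddr2 fell without BRL replicate 1 (edgeR adjusted p = 0.00906). The 7 endothelial markers summed to 42.5 to 58.7 CPM with BRL and 9.92 to 13.0 CPM with vehicle, which was mostly Kdr (log2 fold change 2.84 ± 0.25, edgeR adjusted p = 0.00189). The 6 leukocyte markers summed to at most 4.89 CPM in a BRL library and 4.41 CPM in a vehicle library. Of 6 skeletal myogenic factors, Myod1, Myf5 and Myf6 had no counts and Pax3 had 4.10 to 11.6 TPM (0.15 ± 0.25, adjusted p = 0.765). The part of these markers in the values of the 9 factors was not tested.

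For Tbx20 and Mef2a, the genes whose log2 CPM ran most alike over the 6 libraries were sought among 9458 genes of at least 10 CPM on average. For Tbx20 these were Ctsh, a lysosomal protease (Pearson r = 0.996), Ube2h, a ubiquitin-conjugating enzyme (0.989), and Mrps18c, a mitochondrial ribosomal protein (0.986), and 107 genes had r above 0.9. For Mef2a they were the desmosomal Dsp (0.995), the calcium channel subunit Cacna2d1 (0.995) and the kinase Cdk14 (0.994), and 335 genes had r above 0.9. Mean levels of Dsp were 209.8 CPM with BRL and 278 CPM with vehicle. These are descriptions over 6 libraries of 2 groups, which share the group difference and the standing of BRL replicate 1.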

How the data were processed

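For each library the authors deposited expected counts per gene and the fraction of transcripts each gene makes up, both from RSEM. The submitters' processing notes name cutadapt, Bowtie, RSEM 1.17 and edgeR, and the build NCBIM37; no source used here gives their settings or says whether reads were counted by strand. The deposited fraction was scaled to TPM to set levels of genes side by side within a library. The authors' deposited series table holds log2 values of 13863 genes and served as an alternative only. Groups and replicate numbers come from the sample titles.

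Rounded expected counts were filtered (filterByExpr, minimum count 10), scaled by TMM and compared by group with edgeR's quasi-likelihood test (edgeR 4.0.16 in R 4.3.3), with Benjamini-Hochberg adjustment over the 12047 genes kept and a threshold of 0.05. Total counts per library ran from 4440168 to 8332472, so 3 counts stand for 0.360 to 0.676 CPM; this floor covers counting error only. Of genes with counts, 27.2% to 30.1% per library had values not whole within 0.005. Symbols came from the supplied names; exon overlaps and chromosomes came from GENCODE M21, of another build. Alternatives used limma 3.58.1 and DESeq2 1.42.0, other scalings and filters, and libraries left out in turn. The test was checked on simulated counts. Named genes are the 9 factors; from each other list every gene past the threshold, or else the one of smallest p; every expressed chamber or family factor; and 3 genes of most similar pattern for the 2 factors of smallest p. Other names were added after their values were seen. Of the listed genes, 2 are not reported here, and the counts by list leave them out. The members and lists were chosen with earlier results of these data known.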

Additional observations from a re-analysis of the deposited data

How the results depend on the processing

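Of 153 values of the 9 factors under other settings, 144 kept their direction and their side of the threshold, 6 passed it and 3 turned direction; of 457 values of 27 other named genes these numbers were 385, 10 and 14, and 48 fell below it. Over all genes, with 122 higher and 216 lower in BRL, library totals gave 77 higher, no filter on low counts 282 higher and 330 lower, DESeq2 246 and 355, and edgeR's exact test 418 and 527, with 1 factor, Tbx20, higher. Leaving out each library in turn gave 17 to 1240 higher and 15 to 1315 lower, and 0 to 3 factors higher and 0 to 2 lower, the upper ends without BRL replicate 1. Deviations of same-numbered libraries from their group means correlated at 0.10, −0.02 and −0.02, and those of other pairs at −0.11 to 0.13. With 3 libraries a group and BRL replicate 1 apart, these values cannot settle whether the numbers pair the samples. The sample titles do not state a pairing. A replicate block gave 63 genes higher and no factor called, and Camk2d (edgeR adjusted p = 0.0744), Hdac5 (0.0930) and Slc8a1 (0.0522) were not called in it. With libraries left out in turn the log2 fold change changed direction for 8 named genes: Tbx5 ran from −0.33 to 0.25, Gata5 from −0.23 to 0.15 and Tbx18 from −0.15 to 0.11 (positive without BRL replicate 1 only), Hand2 from −0.082 to 0.18, Irx3 from −0.21 to 0.35, Hey2 from −0.29 to 0.47, Pax3 from −0.061 to 0.29 and Cd68 from −0.16 to 0.39. Direction also turned with limma-voom for Cd68 (−0.022) and Hey2 (0.017), and with limma on the deposited log2 table, an alternative chosen after seeing the data, for Cd68 (−0.036) and Hey2 (0.021). None of these passed the threshold. By CPM per kb of the longest transcript, Mef2a ranked 1, Gata4 2, Tbx5 4, Mef2d 5 and Tbx20 6. The difference of the Mef2c share ran from −0.65 to 0.72 points and that of the Gata4 share from −0.45 to 0.66 when a library was left out, and turned direction without BRL replicate 2 (0.72) or vehicle replicate 3 (0.26) for Mef2c and without BRL replicates 2 (−0.06) and 3 (−0.45) or vehicle replicate 1 (−0.30) for Gata4. At 0.5 and 2 TPM, 15 and 11 chamber and family factors counted as expressed. The causes were not tested. Gata6 and Hand2 had low depth, 58 to 155 counts a library.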
